A study of Komagataella phaffii with 13 samples.

Results

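The formaldehyde fixation genes of P. pastoris (Komagataella phaffii) are DAS1 (PAS_chr3_0832) and DAS2 (PAS_chr3_0834), which encode dihydroxyacetone synthases, and DAK (PAS_chr3_0841), which encodes dihydroxyacetone kinase. These 3 of the 5439 identifiers measured were chosen by name and read in all 13 RNA-Seq libraries. The libraries came from a methanol-utilizing GS115 strain that produced the Aspergillus niger phytase PhyA under the AOX1 promoter in a high-cell-density fed-batch process, so every library carries the phytase cassette. They are B_10, taken from the yeast cell culture at 10 h, G_3, taken 3 h into the glycerol feed, GM_2, taken 2 h into the mixed glycerol and methanol feed (GM phase), and M_12 to M_120, taken every 12 h of methanol induction. Each condition has 1 library and no replicate, and M_12 to M_120 are repeated samplings of 1 culture. Their spread therefore mixes time with differences between libraries, and p-values within methanol induction measure that spread only. The sample labels call B_10 a bench-scale batch while the study's methods describe 1 fermentation, so values against B_10 may also compare fermentation scales. The strain number in the labels goes up by 1 with each methanol sample, and the extraction text describes an animal tissue, and all libraries were taken here as GS115 yeast.

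In methylotrophic yeasts methanol is oxidized to formaldehyde by alcohol oxidase in the peroxisome. Dihydroxyacetone synthase, a peroxisomal transketolase, joins formaldehyde to xylulose phosphate and yields glyceraldehyde phosphate and dihydroxyacetone, and dihydroxyacetone kinase phosphorylates the dihydroxyacetone to its phosphate. These are the entry reactions of the xylulose monophosphate cycle, in which other enzymes rebuild the acceptor sugar, while formaldehyde that is not fixed is oxidized to carbon dioxide in the cytosol.

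Values are FPKM, fragments per kilobase of transcript scaled between libraries, as deposited. The divisor that the FPKM imply was 0.868 (M_120) to 1.11 (G_3) times the fragments recovered, so the scaling was not by this total alone. Between 23452887 and 42621774 fragments per library (median 28893284) were recovered from the FPKM, and no library gave a member fewer than 1216 fragments. The 95% counting intervals given below rest on the recovered fragments (exact Poisson intervals for a level, a normal approximation of the log ratio for a ratio) and cover counting error only. DAS1 and DAS2 are paralogs, the sources used here do not give how reads that both genes could share were counted, and the part of such reads in the values was not tested. Log2 fold changes are on the log2(FPKM + 1) scale, which slightly understates the change of the low values in B_10 and G_3, and a gene was called higher or lower where it differed by at least 1 log2 unit. For methanol induction each of its 10 libraries had to pass this on the same side. These calls carry no p-value.

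All 3 genes had their lowest levels before methanol was fed, and the synthases were far lower than the kinase. DAS1 was at 17.4 FPKM in B_10 (16.5 to 18.2), 18.2 FPKM in G_3 (17.3 to 19.2) and 374 FPKM in GM_2 (370 to 378). DAS2 was at 12.99 FPKM in B_10 (12.3 to 13.7), 17.4 FPKM in G_3 (16.5 to 18.3) and 1283 FPKM in GM_2 (1275 to 1290). DAK was at 232 FPKM in B_10 (228 to 235), 261 FPKM in G_3 (258 to 265) and 845 FPKM in GM_2 (839 to 852). The kinase was thus more than 10 times as high as either synthase on glycerol. Ranked by FPKM among all 5439 identifiers, DAS1 stood at 4494 in B_10, DAS2 at 4755 and DAK at 678.

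During methanol induction the order of the genes was the reverse. DAS1 had a lowest level of 5671 FPKM at 36 h, a median of 6451 FPKM and a highest level of 7285 FPKM at 108 h. DAS2 lay between 7825 FPKM at 36 h and 9585 FPKM at 72 h, with a median of 8254 FPKM. DAK lay between 2285 FPKM at 120 h and 2867 FPKM at 12 h, with a median of 2477 FPKM. Every methanol library was above GM_2 for each gene, and no methanol library of one gene overlapped the range of another. In the ranking by FPKM, DAS2 stood between 6 and 10 in the methanol libraries, DAS1 between 11 and 18 and DAK between 33 and 74.

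**Figure D1:**
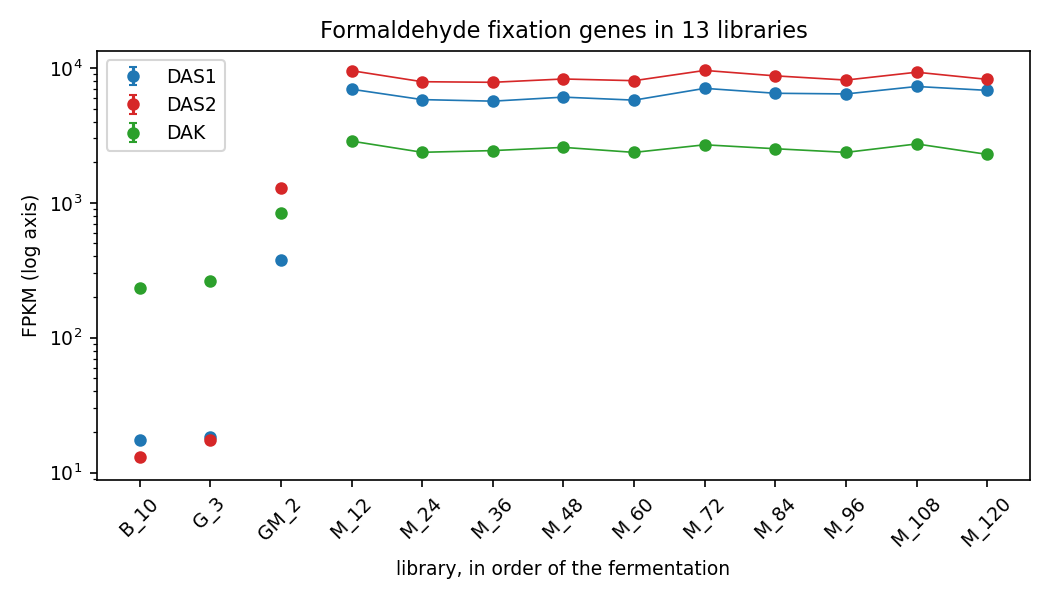
FPKM of DAS1, DAS2 and DAK on a log axis in the 13 libraries in the order of the process, 1 point per library with no replicates. DAS1 and DAS2 lie below 20 FPKM in B_10 and G_3, separate in GM_2 (374 and 1283 FPKM) and lie at 5671 FPKM or above in all 10 methanol libraries, with DAK between 2285 and 2867 FPKM there.

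The glycerol feed was compared with the yeast cell culture to see whether the genes moved before any methanol was added. None of the 3 was called, with log2 fold changes of 0.07 for DAS1, 0.39 for DAS2 and 0.17 for DAK in G_3 against B_10, where 2.47% of the 5100 genes kept were called higher. The counting intervals of DAS1 overlapped between G_3 and B_10, those of DAS2 and DAK did not, and without a replicate these differences cannot be set against biological spread.

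In the GM phase, when methanol was fed beside glycerol, all 3 genes were called higher than in B_10, where 9.69% of genes were called higher and 7.02% lower. DAS2 was 98.8-fold higher (log2 fold change 6.52), DAS1 21.6-fold (4.35) and DAK 3.65-fold (1.86). Among 5100 genes ordered by this fold change DAS2 stood at 2, DAS1 at 11 and DAK at 142. With G_3 in place of B_10 the log2 fold changes in GM_2 were 6.13 for DAS2, 4.29 for DAS1 and 1.69 for DAK.

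Over methanol induction all 3 genes were again called higher than in B_10, in each of the 10 libraries, where 8.61% of genes were called higher and 5.53% lower. The median log2 fold change was 9.20 for DAS2 (9.13 to 9.42 over the libraries), 8.46 for DAS1 (8.27 to 8.63) and 3.41 for DAK (3.30 to 3.62). On the FPKM scale the medians were 636-fold, 372-fold and 10.7-fold higher in that gene order. DAS2 stood at 3 of 5100 genes by this fold change, DAS1 at 5 and DAK at 58.

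All 3 genes were also called higher in methanol induction than in GM_2, and here 4.39% of genes were called higher and 4% lower. Methanol induction differs from GM_2 both in the feed and in the time on methanol, which cannot be told apart. DAS1 gained most, with a median of 17.2-fold (log2 fold change 4.10, 3.92 to 4.28 over the libraries). DAS2 gained 6.44-fold (2.69, 2.61 to 2.90) and DAK 2.93-fold (1.55, 1.43 to 1.76). The ranges of the 3 genes did not overlap. This comparison shares GM_2 with the one against B_10, so the gains before and after GM_2 are not independent of each other.

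After 2 h of mixed feed each gene thus stood at a different part of its later methanol level. GM_2 held 5.80% of the methanol median of DAS1, 15.5% of that of DAS2 and 34.1% of that of DAK, in FPKM. For the 439 genes called higher in methanol induction the median of this percentage was 49.3, and 428 of them had a larger percentage than DAS1, 404 than DAS2 and 309 than DAK. On the log2 scale GM_2 held 51.5% of the rise of DAS1, 70.8% of that of DAS2 and 54.6% of that of DAK, beside a median of 49.7% over the same 439 genes. The FPKM percentage does not subtract the level in B_10, so a gene with a small rise has a large percentage from the start. The place of the members among the 439 genes therefore depends on the size of their fold changes. Their low position holds for the FPKM scale only, since on the log2 scale each lay above that median.

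The synthases changed order between the phases. The DAS2 to DAS1 ratio of FPKM was 0.748 in B_10 (95% counting interval 0.695 to 0.806) and 0.953 in G_3 (0.886 to 1.03). It was 3.43 in GM_2 (3.39 to 3.47) and had a median of 1.36 in methanol induction, between 1.21 at 120 h and 1.39 at 60 h. DAS1 was the higher synthase in B_10, the 2 could not be told apart by counting error in G_3, and DAS2 was the higher in GM_2 and in all 10 methanol libraries. The ratio in GM_2 was 2.52 times the methanol median and lay above each methanol library. With 1 GM_2 library no test of this difference was possible. DAS2 made up 42.8% of the summed FPKM of the synthases in B_10, 48.8% in G_3, 77.4% in GM_2 and 54.7 to 58.2% in methanol induction.

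**Figure D2:**
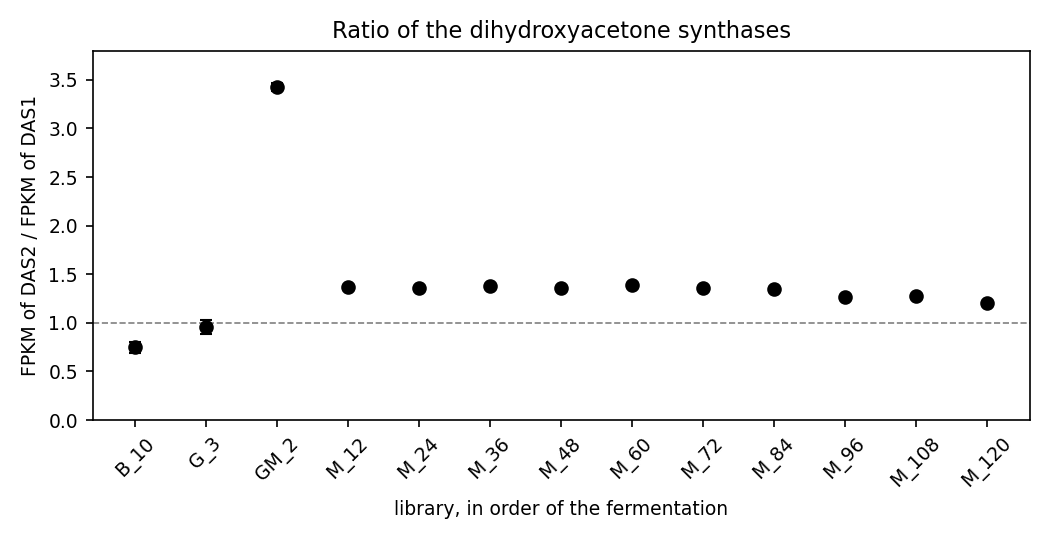
DAS2 to DAS1 ratio of FPKM in the 13 libraries, 1 point per library, with bars for the 95% counting interval where it exceeds the point. The ratio lies below 1 in B_10 and G_3, at 3.43 in GM_2 and between 1.21 and 1.39 in methanol induction.

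Within methanol induction the ratio fell late. It was 1.37, 1.36, 1.38, 1.36 and 1.39 from M_12 to M_60, and 1.36, 1.35, 1.27, 1.28 and 1.21 from M_72 to M_120. Of the 5 late libraries 4 lay below all 5 early ones. The mean log2 ratio, with 1 FPKM added to each gene, was 0.37 ± 0.070 in the late libraries and 0.46 ± 0.015 in the early ones (SD, n = 5 each), a difference of −0.090. In an exact two-sided permutation test of this single value p was 0.0159, and the smallest p that 5 against 5 allow is 0.00794. Leaving out each library in turn gave differences from −0.11 to −0.066 and exact p-values from 0.0159 to 0.0317. A straight line over the hours fell by 0.16 on the log2 scale between 12 and 120 h (permutation p = 0.00182, two-sided, 100000 resamples). The early and late libraries follow each other in 1 culture, so time and any other change along the run cannot be told apart. Both permutation tests treat the libraries as independent, which serial samples of 1 culture are not, so their p-values may be too small. How often ratios of other genes pass the same tests was not counted. Of all single genes, 25.4% had an unadjusted p under 0.05 in a limma fit over the hours and 19.3% in one of late against early libraries. The late fall was therefore not shown to be particular to this pair.

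Neither synthase passed a test on its own over the same hours. In a limma fit across 5100 genes with the hours as covariate, the change over 12 to 120 h was 0.19 ± 0.13 for DAS1 (log2, SE, adjusted p = 0.400), 0.026 ± 0.13 for DAS2 (adjusted p = 0.923) and −0.089 ± 0.12 for DAK (adjusted p = 0.693). In this fit 4.88% of genes were called higher with time and 2.8% lower at an adjusted p of 0.05. In the limma fit of the late libraries against the early ones, DAS1 differed by 0.17 ± 0.080 (adjusted p = 0.274), DAS2 by 0.081 ± 0.084 (adjusted p = 0.649) and DAK by −0.0024 ± 0.085 (adjusted p = 0.989). Here 1.37% of genes were called higher and 1% lower. None of the members reached an unadjusted p of 0.05 in either limma fit, against 1297 of 5100 genes (25.4%) in the first fit and 983 (19.3%) in the second. These values depended on single libraries, on the scaling and on the limma setting. The late against early fit of limma without its empirical Bayes trend gave DAS1 an unadjusted p of 0.0319 (adjusted p = 0.212). Without M_12 the slope of DAS1 was 0.35 (limma, unadjusted p = 0.0133, adjusted p = 0.080) and its late against early difference 0.22 (unadjusted p = 0.0060, adjusted p = 0.068), so its unadjusted p then passed 0.05 and its adjusted p did not. Leaving out each library in turn, the slope of DAS1 lay between 0.13 and 0.35, that of DAS2 between −0.032 (without M_108) and 0.16 (without M_12), and that of DAK between −0.17 (without M_108) and 0.019 (without M_12). Rescaling the libraries without the 20 genes of largest FPKM gave slopes of 0.033 for DAS1, −0.13 for DAS2 and −0.25 for DAK. The directions of the DAS2 and DAK slopes were thus not stable, while the ratio of the synthases within a library does not depend on the scaling.

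The members moved up and down together between methanol libraries. M_12, M_72 and M_108 were the 3 highest libraries for each of DAS1, DAS2 and DAK. In 8 of the 9 steps from one methanol library to the next all 3 genes changed in the same direction, and the exception was the step from M_24 to M_36. How many of the other genes followed the same steps was not counted, so whether this count is particular to the members was not tested. The largest step was 0.29 on the log2 scale, for DAS1 between M_60 and M_72. Rescaling kept 8 of 9 steps in a shared direction, but the 3 highest libraries of DAK became M_12, M_48 and M_108. The highest methanol library exceeded the lowest 1.28-fold for DAS1, 1.22-fold for DAS2 and 1.25-fold for DAK. The SD of log2(FPKM + 1) over the 10 libraries was 0.13 for DAS1, 0.11 for DAS2 and 0.11 for DAK, beside a median of 0.15 over all 5100 genes.

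**Figure D3:**
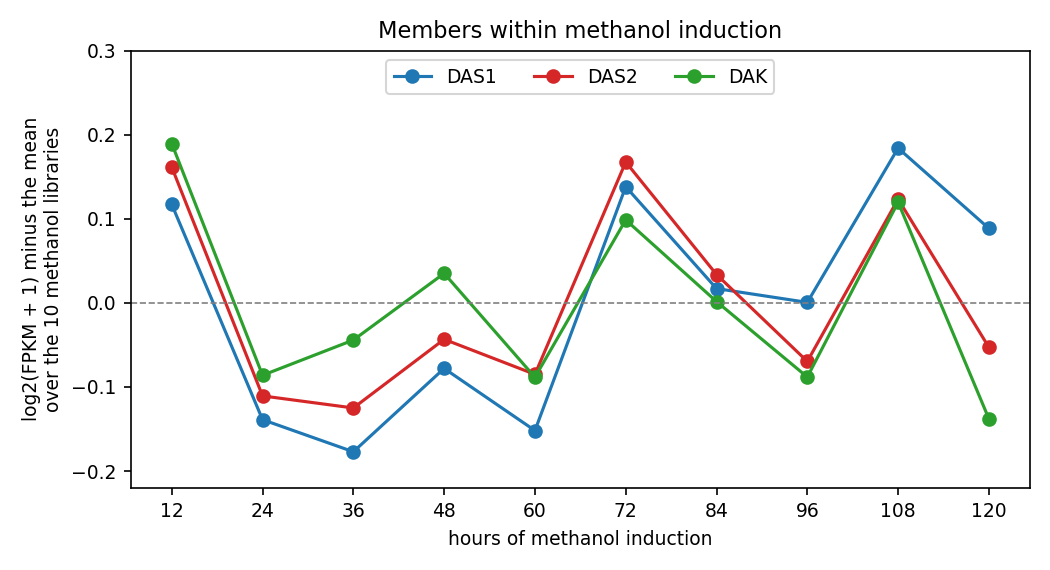
Difference of log2(FPKM + 1) from the mean of the 10 methanol libraries for each member against hours of methanol induction, 1 point per library. All 3 genes have their 3 highest points at 12, 72 and 108 h, and at 120 h DAS1 lies above its mean while DAS2 and DAK lie below theirs.

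Ordered by level over the 13 libraries, most neighbouring levels of a member were separated by more than the counting error. The exceptions were G_3 and B_10 for DAS1, M_72 and M_12 for DAS2, and the pairs M_24 with M_96 and M_96 with M_60 for DAK, out of 12 neighbouring pairs per gene. This order says nothing of biological spread, which was not measured.

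The balance between the synthases and the kinase shifted with the phases. The summed FPKM of DAS1 and DAS2 was 30.3 in B_10, 35.6 in G_3, 1657 in GM_2 and 13496 to 16642 in methanol induction (median 14795). It was 0.131 times the level of DAK in B_10, 0.136 times in G_3 and 1.96 times in GM_2. In methanol induction the synthases exceeded the kinase by a factor of 5.54 to 6.58 (median 5.95), with 6.05 to 6.58 in the late libraries and 5.54 to 5.84 in the early ones. The late and early libraries did not overlap in this ratio, which was not tested, and how often ratios of other genes separate them was not counted. As a share of the fragments recovered the synthases held 0.00667% in B_10, 0.00843% in G_3, 0.361% in GM_2 and 2.77 to 3.56% in methanol induction. The fragments recovered cover only the 5040 identifiers with a RefSeq length.

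The other enzymes of the pathway were read from lists that the study named on these same libraries, so their directions are no independent evidence. The 4 assimilation partners are genes for enzymes that rebuild xylulose phosphate, and a suffix of 2, where present, marks the methanol-associated copy of a pair. Against B_10, 3 of the 4 were called higher in GM_2 and 4 of 4 in methanol induction, with a median log2 fold change of 5.82 there beside −0.011 over all genes. The aldolase FBA1-2 had a log2 fold change of 2.62 in GM_2 and 8.23 in methanol induction, and the transaldolase TAL1-2 1.51 and 6.38. The ribose phosphate isomerase RKI1-2 had 1.24 and 5.26, and the bisphosphatase FBPI, not called in GM_2, had 0.27 and 1.86. All 4 were called higher in methanol induction than in GM_2, with a median of 4.44, against 4.10 for DAS1, 2.69 for DAS2 and 1.55 for DAK.

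The counterparts of these enzymes in the pentose phosphate pathway and glycolysis were not called higher against B_10. In GM_2 1 of the 4 was called lower, FBA1-1 (−1.20), and in methanol induction 2 of the 4, FBA1-1 (−1.37) and the transketolase TK (−2.59). TK catalyses the same type of transfer as the synthases. It was at 811 FPKM in B_10, 604 FPKM in G_3, 411 FPKM in GM_2 and 107 to 149 FPKM in methanol induction (median 134). TK stood above both synthases together in B_10 and G_3 and below them in GM_2 and every methanol library. Against GM_2, methanol induction had 1 counterpart called lower, TK (−1.61), and 1 called higher, RKI1-1 (1.30).

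The 5 oxidation and dissimilation genes, which encode alcohol oxidase (AOX1), catalase (CAT) and the enzymes that oxidize formaldehyde and formate (FLD, FGH, FDH), were all called higher in GM_2 and in methanol induction against B_10. Before methanol was fed, 3 of the 5 were already called higher in G_3 than in B_10, AOX1 (1.67), FDH (1.54) and CAT (1.07), where none of the members was. Their median log2 fold change was 3.14 in GM_2 and 5.57 in methanol induction, beside 4.35 and 8.46 for DAS1, the median of the 3 members. The members did not exceed these genes as a set. FDH stood above every member in GM_2 (8.13) and AOX1 above every member in methanol induction (10.9). DAK (1.86 and 3.41) lay below all 5 in both, of which CAT was the lowest (2.05 and 3.68). In methanol induction against GM_2, 4 of the 5 were called, with a median of 1.63, and FDH was not (0.62). GUT1, the glycerol kinase gene, had a log2 fold change of 0.61 in GM_2 against B_10 and was called lower in methanol induction, by −4.53 against B_10 and −5.14 against GM_2. Of 4 regulators of the AOX1 promoter, Mit1 (5.38) and Mxr1 (1.22) were called higher in GM_2 and Mit1 alone in methanol induction (3.36), while Mit1 was called lower in methanol induction than in GM_2 (−2.02). None of these 18 listed genes passed the adjusted p of 0.05 in either limma fit over the methanol hours, and 4 (22.2%) in each fit had an unadjusted p under 0.05, beside 25.4% of all genes in the fit over hours and 19.3% in that of late against early libraries.

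**Figure D4:**
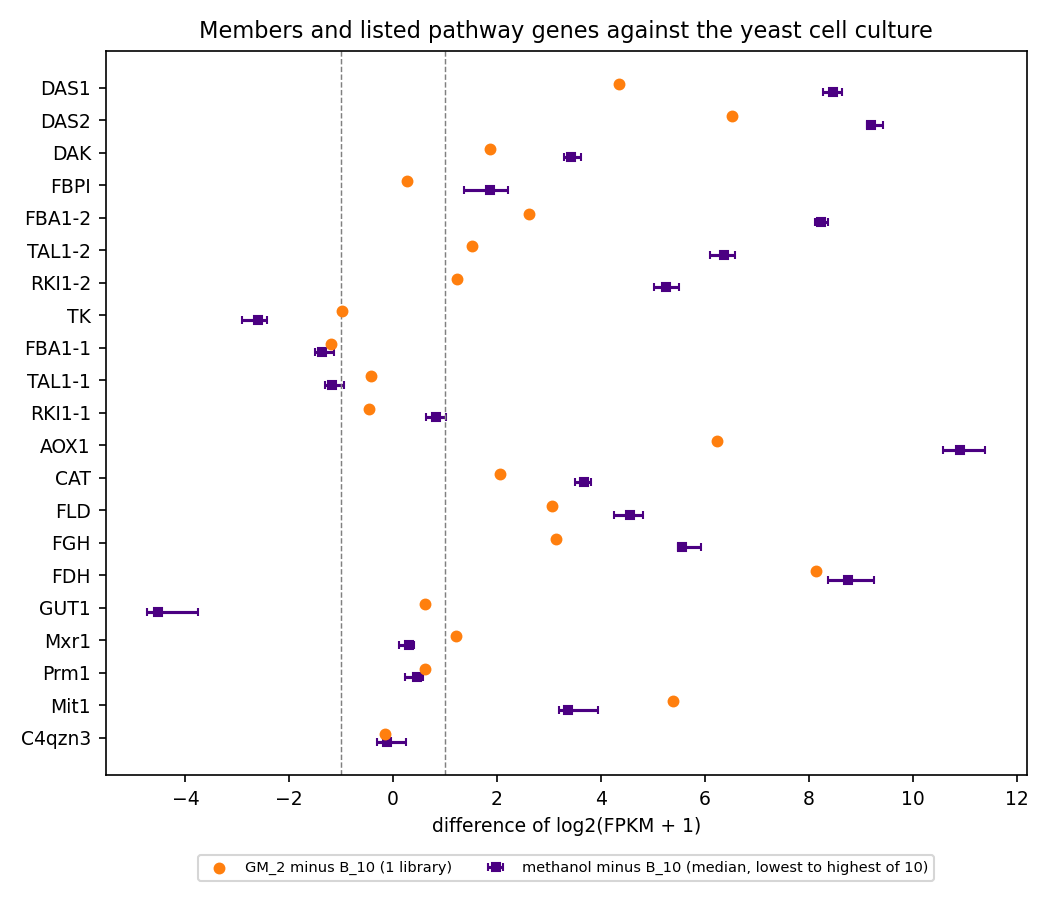
Difference of log2(FPKM + 1) from B_10 for the members and the listed pathway genes, in GM_2 (circles, 1 library) and in methanol induction (squares, median, with bars from the lowest to the highest of 10 libraries); dashed lines mark a difference of 1 log2 unit. DAS1 and DAS2 lie at 4.35 and 6.52 in GM_2 and at 8.46 and 9.20 in methanol induction, and DAK at 1.86 and 3.41.

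The 3 members lie close together on chromosome 3. In the RefSeq gene order of assembly ASM2700v1, PAS_chr3_0833 lies between DAS1 and DAS2, and 5 genes lie between DAS2 and DAK, of which Mit1 (PAS_chr3_0836) is next to DAS2. The gene between the synthases did not follow their levels. PAS_chr3_0833 was at 18.8 FPKM in B_10, 23.1 FPKM in G_3, 77.5 FPKM in GM_2 and 81.5 to 105 FPKM in methanol induction (median 95.5), a log2 fold change of 1.99 in GM_2 and 2.29 in methanol induction against B_10. Mit1 was at 83.8 FPKM in B_10, 164 FPKM in G_3 and 3542 FPKM in GM_2, and at 775 to 1297 FPKM in methanol induction (median 871), so its highest library was GM_2, while the highest libraries of the members were in methanol induction.

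Of the locus numbers PAS_chr3_0822 to PAS_chr3_0851 around the members, 26 were measured and kept, and 23 of these are not members. In GM_2 against B_10, 6 of the 23 were called higher and 1 lower, beside 9.69% and 7.02% of all genes. In methanol induction against B_10, 4 were called higher (PAS_chr3_0833, Mit1, PAS_chr3_0837 and PAS_chr3_0843) and 2 lower (PAS_chr3_0826 and PAS_chr3_0831), beside 8.61% and 5.53%. Against GM_2, methanol induction had 2 called higher (PAS_chr3_0842 and PAS_chr3_0843) and 4 lower, beside 4.39% and 4% of all genes. The 4 lower were PAS_chr3_0829, PAS_chr3_0831, Mit1 and PAS_chr3_0848. No test of the neighbourhood was made, and the synthases exceeded each of the 23 in fold change in methanol induction.

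**Figure D5:**
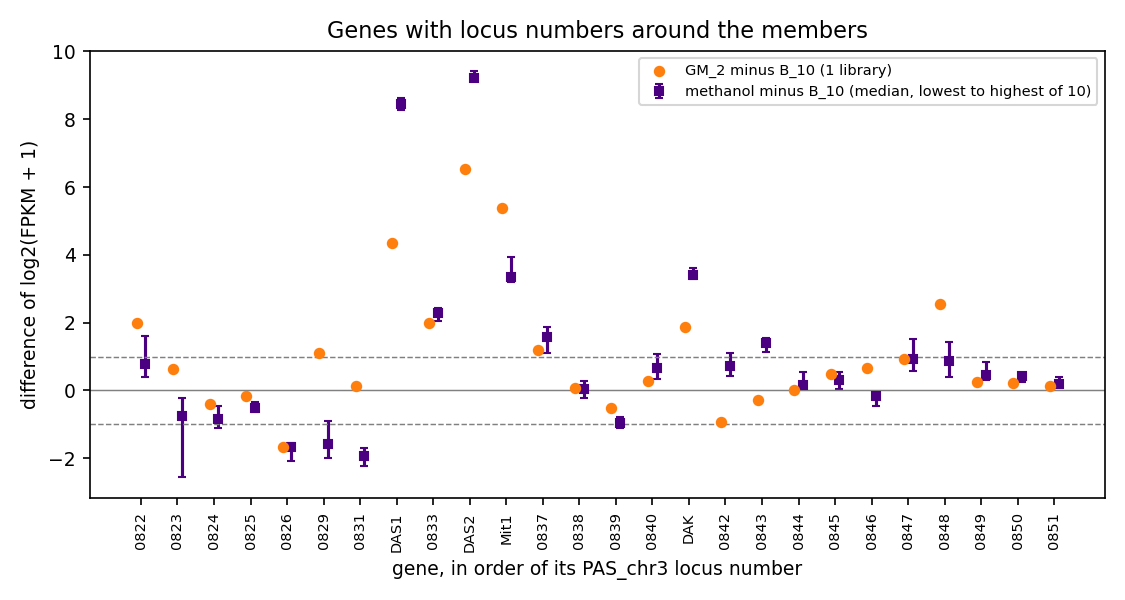
Difference of log2(FPKM + 1) from B_10 for 26 genes in the order of their locus numbers, in GM_2 and in methanol induction (median of 10 libraries). DAS2, DAS1 and Mit1 are the highest in GM_2 at 6.52, 4.35 and 5.38, and PAS_chr3_0833 between the synthases lies at 1.99 in GM_2 and 2.29 in methanol induction.

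Likeness of profiles was measured as the SD over the 13 libraries of the log2 ratio of (FPKM + 1) between a gene and a member, where a smaller SD means that the ratio stayed more constant. For DAS1 the most alike genes were DAS2 (SD 0.48), FBA1-2 (0.49), PAS_chr1-1_0037 (0.52), PMP20 (0.61) and AOX1 (0.72), beside a median of 3.24 over all genes. For DAS2 they were DAS1 (0.48), AOX1 (0.70), FDH (0.74), PAS_chr2-1_0748 (0.89) and PMP20 (0.92), beside a median of 3.41. For DAK they were the peroxin gene PEX6 (0.15), PIM1-2 (0.16), PAS_chr4_0532 (0.16), PEX13 (0.22) and CAT (0.23), beside a median of 1.31. FBA1-2 was among the 5 nearest genes of DAS1 and not of DAS2, and FDH among those of DAS2 and not of DAS1. DAK stood at 44 of 5099 genes in likeness to DAS1 (SD 1.95) and at 39 in likeness to DAS2 (SD 2.13). Both SDs were below the medians over all genes for DAS1 and DAS2 but well above the SD between the synthases. They were also above the median of 1.31 for DAK, so the synthases were less like DAK than the median gene was. Over the 10 methanol libraries alone the SD of the log2 ratio was 0.055 between DAS2 and DAK, 0.067 between DAS2 and DAS1 and 0.11 between DAS1 and DAK. Within methanol induction DAS2 thus kept closer to DAK than DAS1 did. The libraries share 1 culture, so these values are descriptions without a p-value.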

How the data were processed

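The authors sequenced paired-end RNA libraries, aligned the reads with HISAT2 2.0.5 (per the submitters' processing notes) and deposited FPKM per gene and library, already scaled for gene length and between libraries. The sources used here give neither the genome build and annotation release nor the counting tool. Low FPKM multiplied by RefSeq gene length (ASM2700v1, 5040 of 5439 identifiers matched, members 3 of 3) came to whole fragments, with a tolerance of 0.02, in 86.4 to 98.0% of the 40 to 145 values checked per library, and so gave the depth. Median-of-ratios factors of the deposited FPKM did not differ between the 13 libraries, which means that these or equivalent factors had already been applied.

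The 5100 genes whose mean FPKM reached 1 were kept and put on the log2(FPKM + 1) scale. Phases with 1 library were compared by size without a test. Within methanol induction limma 3.58.1 (R 4.3.3) was fitted over all genes, with its empirical Bayes trend, 8 residual degrees of freedom and Benjamini-Hochberg adjustment, once with the hours and once for M_72 to M_120 against M_12 to M_60. The DAS2 to DAS1 ratio was tested by exact permutation. Other work used Python 3.11.15, numpy 2.4.6, pandas 2.3.3, scipy 1.17.1 and matplotlib 3.10.9. The trend fit and the rule of size over 10 libraries were tested on simulated data.

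The text names the 3 members, the 5 genes most alike to each and the genes of 5 pathway lists, as counts with values for some of them. It also names the neighbouring locus numbers that lie next to DAS2 or were called in methanol induction. The members and lists were chosen with earlier results of these data known. Alternatives were a pseudocount of 0.1 or 5, no filter or a minimum mean FPKM of 10, another reference library and another scaling. Single libraries were also left out, and limma was run without its trend and in its robust form.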

Additional observations from a re-analysis of the deposited data

Results flagged for a closer look

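In 51 groups of 10 methanol libraries, which were the members, the listed and neighbouring genes, the genes most alike to the members and the DAS2 to DAS1 ratio, 4 had 1 library far from the other 9, where chance gives about 1 in 20. None of the 4 was DAS1, DAS2, DAK or their ratio. FGH, the S-formylglutathione hydrolase gene of the route that oxidizes formaldehyde, was at 3861 FPKM in M_12, against 2824 to 3215 FPKM in the other 9 libraries. C4qzn3, on the list of AOX1 promoter regulators, was at 1464 FPKM in M_120, against 986 to 1161 FPKM in the others. PAS_chr3_0823 was at 3.34 FPKM in M_12, against 11.4 to 21.0 FPKM in the others. PAS_chr3_0851 was at 32.8 FPKM in M_108, against 26.2 to 29.5 FPKM in the others.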

How the results depend on the processing

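The calls of DAS1, DAS2 and DAK between phases kept their direction and their side of the threshold in 72 of 72 alternative values, and the fall of the DAS2 to DAS1 ratio did so in 13 of 13. The filter alternatives leave a member's own fold change as it is, and a pseudocount hardly moves a ratio of genes at these levels. For those alternatives the outcome was settled in advance and adds no support. The limma results of the 3 genes stayed on the same side of the threshold in 102 of 102 but changed sign in 9. The DAS2 slope was −0.13 when rescaled and −0.032 to 0.16 with 1 library left out (negative without M_24, M_36 or M_108), the DAK slope −0.17 to 0.019 (positive without M_12), and the late against early difference of DAK −0.033 to 0.045 (positive without M_12, M_48, M_96 or M_120). Counts over all genes moved too. The genes with a trend over methanol hours numbered 392, and 145 to 590 when 1 library was left out: 590 without M_12, 155 without M_24, 225 without M_48, 255 without M_72, 168 without M_96 and 145 without M_120. The late against early calls numbered 121, and 22 to 318: 318 without M_12, 26 without M_24, 34 without M_36, 61 without M_48, 49 without M_72, 49 without M_84, 26 without M_96, 22 without M_108 and 34 without M_120. Rescaling without the 20 largest genes moved the genes higher in G_3 to 190, against 126, and those lower in methanol induction to 154, against 282, and G_3 as reference set the last count at 161. Rescaling raised the median of all genes by 0.14 in G_3 and 0.24 in methanol induction. The cause of these shifts was not tested. No paired analysis was possible because the phases before methanol have 1 library each and share with methanol induction only the number 1. With 1 library per condition and 1 culture, no value carries an error between fermentations.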

Other observations

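Among all 5100 genes, 29 (0.569%) had M_12, M_72 and M_108 as their 3 highest methanol libraries, as each of DAS1, DAS2 and DAK did. This set of libraries was chosen after the members' values were seen, and no test was made of it.

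Set against AOX1, which makes formaldehyde, and FLD and FDH of the route that oxidizes it to carbon dioxide, the synthases took a different course with each. Their summed FPKM was 2.68 times that of AOX1 in B_10, 0.933 times in G_3, 1.79 times in GM_2 and 0.453 to 0.731 times in methanol induction, lowest at 120 h and highest at 60 h. Relative to FLD, the formaldehyde dehydrogenase gene, it was 0.1004 in B_10, 0.0996 in G_3, 0.654 in GM_2 and 1.90 to 2.39 in methanol induction. Relative to FDH, the formate dehydrogenase gene, it was 0.668 in B_10, 0.265 in G_3, 0.127 in GM_2 and 0.532 to 0.892 in methanol induction. GM_2 was thus the lowest of the 13 libraries for the ratio to FDH and lay between the glycerol and methanol libraries for the ratio to FLD. These ratios were not tested.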
